A study of Mus musculus with 38 samples.

Results

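The comparison was made in APPPS1ΔE9 mice of 6 months of age, 4 fed chow with anle138b and 4 fed placebo chow. These 8 mice were chosen by genotype, age and chow as given in the sample labels, out of 38 mice in the whole series. APPPS1ΔE9 mice carry an APP transgene with the Swedish mutations and a second transgene, both driven by the promoter of the mouse prion protein gene, on a C57BL/6 background. All 8 carried the transgenes, so the placebo mice have the same genotype as the treated ones. The chow held 2 g of anle138b per kg, or none in the placebo, and was given for 4 months from 2 months of age. The study's methods state that all mice were male. RNA came from the whole hippocampus, with 1 library per mouse. Placebo libraries were all sequenced on lane 5 and anle138b libraries all on lane 6, so lane and chow cannot be told apart in these mice. The question addressed was what anle138b in the chow, given from before plaques form, changed in hippocampal RNA of the mutant mice.

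In APPPS1ΔE9 mice, neurons make and cleave the transgenic APP, and amyloid β peptides collect in plaques as the mice age. Microglia, the resident macrophages of the brain, gather at plaques and take on a state marked by Trem2, Tyrobp, Cst7, Itgax and Clec7a, while complement genes such as C4b are made by glia around them. Anle138b is a diphenyl-pyrazole that binds aggregated forms of proteins such as amyloid β, prion protein and α-synuclein, and it acts on oligomers.

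Total read counts were 17939563 to 25690342 in the 4 placebo mice and 26255378 to 31895808 in the 4 anle138b mice, so each treated mouse was sequenced more deeply than each placebo mouse. Between 23507 and 25342 genes had at least 1 read. Levels are given below in CPM, reads of a gene relative to the size of its library, with TMM factors set over all 38 mice, mouse by mouse, with mice 15, 16, 27 and 84 on anle138b and mice 17, 71, 74 and 75 on placebo. No marker of dentate granule cells (10 genes) or of CA1 to CA3 pyramidal cells (14 genes) was at 0 in any mouse, and their summed levels were 572 to 698 CPM and 1208 to 1386 CPM. Markers of neocortex and striatum were not at 0 either, at 168 to 210 CPM and 84.9 to 165 CPM in sum over 10 genes each, so detection alone does not tell the hippocampus from other brain regions.

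The mice fell into 2 ranges of mouse numbers that stood apart. Ttr, the transthyretin of the choroid plexus, was at 6465, 5700 and 7105 CPM in anle138b mice 15, 16 and 27 and at 6305 CPM in placebo mouse 17. It was at 124 CPM in anle138b mouse 84 and at 32.3, 655 and 148 CPM in placebo mice 71, 74 and 75. Choroid plexus RNA thus followed the mouse number, and the 2 chows were spread unevenly, with 3 anle138b and 1 placebo mouse numbered 15 to 41 against 1 and 3 numbered 71 to 84. What the number stands for is not given in the sources used here. The fits were therefore repeated with the number range as a covariate. Within each range 1 chow has a single mouse, placebo mouse 17 or anle138b mouse 84, so values with the covariate lean heavily on these 2.

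WT mice of the same age, 4 on each chow, are given for comparison. The titles of the 4 placebo mice among them say WT while their genotype label names the transgene, and their App level was that of the other WT mice. Of the 8 WT mice, 5 (33 and 83 on anle138b, 30, 31 and 77 on placebo) had 1170 CPM or more of Xist, the RNA of the inactive X chromosome, and at most 0.339 CPM summed over the Y-linked genes Kdm5d, Uty, Ddx3y and Eif2s3y. This goes against the statement that all mice were male, and the sexes were mixed in both WT groups. Of the APPPS1ΔE9 mice of 10 months used below, 1 of 7 on anle138b (mouse 93, Xist at 1380 CPM and the Y-linked genes at 0.46 CPM) and 0 of 5 on placebo had such levels. In the 8 APPPS1ΔE9 mice Xist was at most at 5.39 CPM and the Y-linked genes at 172 to 365 CPM.

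The transgenes did not set the groups apart. App was at 3998, 3729, 3268 and 3960 CPM on anle138b and at 3848, 4314, 3904 and 4318 CPM on placebo, against 1624 to 1796 CPM in the 8 WT mice of the same age. The groups overlapped, with a log2 fold change of −0.13 (SE 0.082, edgeR quasi-likelihood test, adjusted p = 0.491). Lamr1-ps1, a pseudogene beside Prnp that marks the transgenic mice here, was at 10.9 to 17.4 CPM in all 8 mice and at most at 0.0569 CPM in WT mice. Prnp had a difference of −0.07 on the log2 scale and overlapped between groups, with an adjusted p of 0.711 in edgeR.

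Of 17009 genes tested, 9 passed an adjusted p of 0.1 in edgeR's quasi-likelihood test, or 0.0529%. Zswim4, Tdpx-ps1, Plvap and Gm13340 rose on anle138b (0.0235% of genes) and Scoc, Pisd-ps2, Man2b1, Pisd-ps1 and Pcnx2 fell (0.0294%). Of the 9, 5 lie on chromosome 8 and 4 are pseudogenes on other chromosomes, each a close copy of another gene. With the number range as a covariate 6 genes passed (0.0353%), all among the 9, with 1484 at an unadjusted p under 0.05 (8.72%, 3.55% higher and 5.17% lower), and Plvap, Pisd-ps1 and Pcnx2 did not. Without adjustment 2233 genes had p under 0.05 (13.1%), 935 higher (5.5%) and 1298 lower (7.63%). DESeq2 called 206 of 15430 genes (1.34%, 0.525% higher and 0.81% lower), among them all 9. The count rested on which mice were present, being 317 in edgeR without placebo mouse 17, after which all placebo mice were numbered 71 to 84, and 16 without anle138b mouse 84.

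Zswim4 encodes a protein with a SWIM zinc finger and had the smallest p. It was at 51.3, 48.0, 45.4 and 44.8 CPM in the anle138b mice and at 24.7, 27.2, 23.7 and 22.2 CPM in the placebo mice. Every treated mouse lay above every placebo mouse by a wide margin, and the groups were tight. The log2 fold change was 0.95 (SE 0.071, adjusted p = 0.000118, edgeR), a ratio of 1.93.

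Scoc, a short coiled-coil protein of the Golgi with a role in autophagy, moved the other way. It was at 33.1, 33.6, 33.8 and 32.2 CPM on anle138b and at 48.5, 45.1, 50.9 and 48.6 CPM on placebo. The treated mice differed among themselves by less than 2 CPM and none reached the placebo range. Its log2 fold change was −0.54 (SE 0.054, adjusted p = 0.00148, edgeR).

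Man2b1, the α-mannosidase of lysosomes that trims the sugar chains of glycoproteins, also fell. It was at 55.6, 50.6, 48.6 and 48.9 CPM on anle138b and at 68.8, 69.2, 66.6 and 71.3 CPM on placebo. The treated mice were all lower, and the WT mice of the same age, at 47.7 to 58.3 CPM, lay near the treated ones. The log2 fold change was −0.44 (SE 0.054, adjusted p = 0.00867, edgeR).

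Plvap encodes the protein of endothelial diaphragms, which in the brain is found in vessels of the choroid plexus rather than in those with a blood-brain barrier. It was at 9.11, 11.95, 10.4 and 10.4 CPM on anle138b and at 6.52, 6.10, 6.53 and 7.15 CPM on placebo. Mouse 84, which had little choroid plexus RNA, was as high as the other treated mice, and placebo mouse 17, which had much, was as low as the other placebo mice. The log2 fold change was 0.67 (SE 0.10, adjusted p = 0.0527, edgeR), with adjusted p = 0.159 once the number range was a covariate, where the log2 fold change stayed at 0.67.

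Pcnx2, a membrane protein of the pecanex family, was at 87.1, 97.5, 83.2 and 90.3 CPM on anle138b and at 110, 126, 114 and 119 CPM on placebo. The groups did not overlap. The log2 fold change was −0.39 (SE 0.060, adjusted p = 0.0527, edgeR), and −0.35 with adjusted p = 0.210 with the covariate. Leaving out each of the 8 mice in turn kept Zswim4, Tdpx-ps1, Scoc, Pisd-ps2 and Man2b1 past the threshold in 8 of 8 fits, Pisd-ps1 and Plvap in 4, Gm13340 in 3 and Pcnx2 in 2.

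Tdpx-ps1 is a processed pseudogene on chromosome 1, a copy of the spliced mRNA of Prdx2, the thioredoxin peroxidase of the cytosol. It was at 2.01, 1.96, 2.28 and 2.41 CPM on anle138b and at 0.205, 0.159, 0.0568 and 0.0453 CPM on placebo. That is 53, 63, 62 and 67 reads against 5, 4, 1 and 1, or 245 reads over the treated group against 11 over the placebo group. The difference was the widest of the 9 at a log2 fold change of 4.09 (SE 0.32, adjusted p = 0.000118, edgeR), at a level where few reads decide the size. Prdx2 itself was at 162, 161, 156 and 161 CPM on anle138b and at 150, 138, 153 and 159 CPM on placebo. It overlapped between groups, with a log2 fold change of 0.09 (adjusted p = 0.457).

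The annotated pseudogene and Prdx2 differ at 22 of 597 aligned bases (96.3% identical), with a longest run of 160 bases without a difference. Prdx2 lies on chromosome 8 at 84969587 to 84974834 (GRCm38), between Zswim4 and Man2b1. How the counting shared reads between the copies was not tested, here or for the pseudogenes below. The following 60 bases of each, from GENCODE transcripts on GRCm38, are shown because they hold 5 of the differences, printed in capitals. The first is chr1:99790950-99791009 on the minus strand, the second chr8:84970258-84970317 on the plus strand.
Tdpx-ps1: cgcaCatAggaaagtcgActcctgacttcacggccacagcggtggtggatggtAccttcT
Prdx2: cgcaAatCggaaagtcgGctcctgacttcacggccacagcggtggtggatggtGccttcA

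Gm13340 on chromosome 2 is a nuclear copy of mt-Co1, the subunit 1 gene of cytochrome c oxidase in the mitochondrial genome. It was at 9.03, 10.6, 10.2 and 10.7 CPM on anle138b and at 5.87, 6.22, 7.21 and 6.88 CPM on placebo, without overlap. The log2 fold change was 0.63 (SE 0.10, adjusted p = 0.0592, edgeR). mt-Co1, at 10720 to 13810 CPM against 9913 to 11640 CPM, differed by 0.20 on the log2 scale with an adjusted p of 0.401 in edgeR. Its neighbour Gm13341, a nuclear copy of mt-Co2, was at 4.44, 5.32, 6.24 and 6.18 against 3.08, 2.54, 2.78 and 3.98 CPM, a log2 fold change of 0.84 that missed the threshold (adjusted p = 0.199). mt-Co2 itself was listed at 0 in every mouse. The share of reads on mitochondrially encoded genes was 4.18 to 5.45% on anle138b and 3.71 to 4.50% on placebo.

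Gm13340 and mt-Co1 differ at 37 of 1545 bases (97.6% identical), and a stretch of 60 bases shows how alike they are, with the 4 differences in capitals. The first is chr2:22589129-22589188 on the minus strand, the second chrM:5787-5846 on the plus strand.
Gm13340: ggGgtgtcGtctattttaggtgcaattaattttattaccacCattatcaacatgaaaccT
mt-Co1: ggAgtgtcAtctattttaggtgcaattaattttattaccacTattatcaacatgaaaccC

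Pisd-ps1 on chromosome 11 and Pisd-ps2 on chromosome 17 are transcribed copies of Pisd, the phosphatidylserine decarboxylase of the inner mitochondrial membrane. Pisd-ps1 was at 113, 120, 135 and 117 CPM on anle138b and at 189, 216, 175 and 162 CPM on placebo. Pisd-ps2 was at 25.1, 26.7, 28.7 and 26.95 CPM on anle138b and at 41.9, 45.1, 39.8 and 37.6 CPM on placebo. Both had all treated mice below all placebo mice, and their fold changes were alike. The log2 fold changes were −0.61 (SE 0.086, adjusted p = 0.0492) and −0.61 (SE 0.068, adjusted p = 0.00342) in edgeR. Pisd was at 40.9 to 44.2 CPM on anle138b and at 48.5 to 57.4 CPM on placebo, lower with a smaller difference (log2 fold change −0.27, adjusted p = 0.247).

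The copies are 94.7% identical to each other over their aligned length, and 94.1% (Pisd-ps1) and 93.9% (Pisd-ps2) identical to Pisd. The 2 pseudogenes may therefore not be independent counts. The 60 bases below lie in the coding sequence of Pisd and hold 8 differences, in capitals. The first is chr17:3079367-3079426, the second chr5:32739149-32739208, both on the minus strand.
Pisd-ps2: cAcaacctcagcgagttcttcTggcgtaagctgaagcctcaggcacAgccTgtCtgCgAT
Pisd: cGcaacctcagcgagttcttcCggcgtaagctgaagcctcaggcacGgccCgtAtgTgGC

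**Figure D1:**
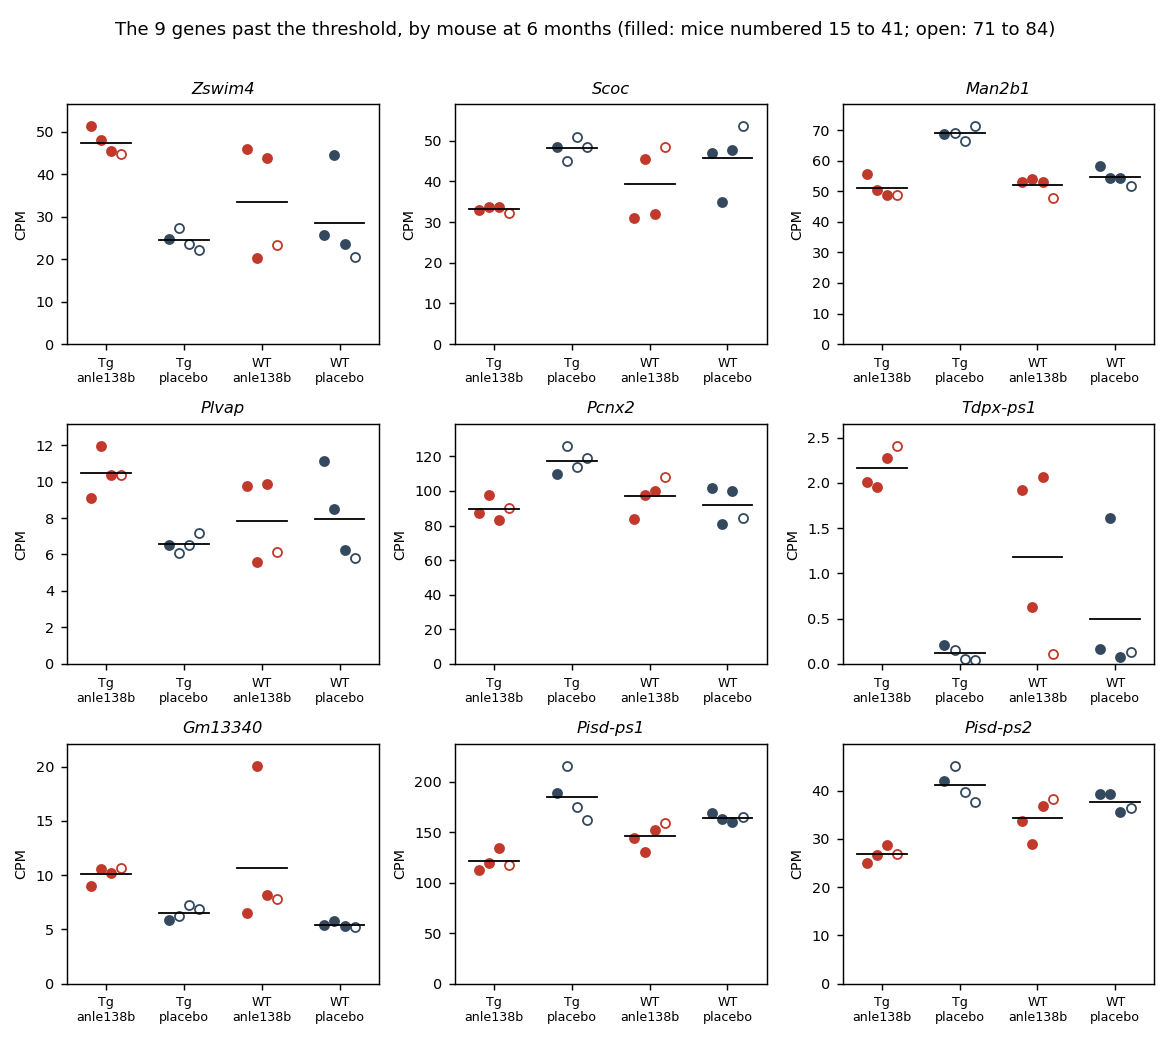
CPM of the 9 genes past the threshold in the 4 groups of 6-month-old mice, 1 point per mouse (filled for mouse numbers 15 to 41, open for 71 to 84) and a bar at each group mean. In the APPPS1ΔE9 mice no anle138b value overlaps a placebo value in any panel, while WT mice on both chows spread over both levels for Zswim4, Scoc and Tdpx-ps1.

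The 5 protein-coding genes past the threshold were all on chromosome 8. In GRCm38 coordinates, Plvap is at chr8:71497765-71511752, Scoc at chr8:83430084-83458391, Zswim4 at chr8:84210678-84237055, Man2b1 at chr8:85083270-85098282 and Pcnx2 at chr8:125751508-125898317. Scoc, Zswim4 and Man2b1 lie within 1.67 Mb, Plvap is 11.9 Mb before Scoc, and Pcnx2 is 40.7 Mb after Man2b1. The 5 genes span 54.4 Mb in all, and they did not move one way, since Zswim4 and Plvap rose and the others fell.

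Chromosome 8 also had a larger share of genes below an unadjusted p of 0.05 than the other autosomes and the X chromosome. There were 147 of 913 tested (16.1%), against 11.6 to 14.1% on those 19. With the number range as a covariate it was 11.9% against 5.68 to 10.3%. The Y chromosome and the mitochondrial genome, with few genes, had 1 of 6 (16.7%) and 5 of 23 (21.7%), and with the covariate 0 and 9 (39.1%). At an unadjusted p under 0.001, 12 of the 58 genes of the whole genome were on chromosome 8, against 0 to 6 on each other chromosome, and 8 of 31 with the covariate, against 0 to 4. Besides the 5 genes, the 12 were Homer3, a scaffold of postsynaptic densities, Mri1, an enzyme of methionine salvage, the calcium channel gene Cacna1a, the lysine catabolism gene Gcdh, Coq9 of coenzyme Q synthesis, Trappc2l of the TRAPP trafficking complex and Cpne7, a copine. None of these 7 passed the threshold. DESeq2 placed 25 of its 206 calls on chromosome 8, which held 913 of the 17009 genes tested in edgeR.

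Genes at an unadjusted p under 0.05 were also counted around the genes past the threshold. The rest of chromosome 8 was not scanned in this way. From Scoc to Man2b1, 19 of 62 tested genes had an unadjusted p under 0.05. Scoc, Zswim4 and Man2b1, which set the stretch by their p, are among the 19. Within 1 Mb the shares were 31.4% of 51 tested genes near Man2b1, 27.7% of 65 near Zswim4, 22.9% of 35 near Scoc and 21.4% of 70 near Plvap, against 13.1% over all genes. Near Pcnx2 it was 5.26% of 19, below the share of all genes. On other chromosomes it was 27.3% of 11 near Gm13340, 33.3% of 3 near Pisd-ps2, 10.0% of 30 near Pisd-ps1 and 0.0% of 2 near Tdpx-ps1. Near Zswim4, 4 were higher and 14 lower, with Scoc and Man2b1 among the lower ones. The windows of Scoc, Zswim4 and Man2b1 overlap, so genes are counted in more than 1 of them. Each share leaves out only the gene its window was drawn around. Zswim4 is thus counted near Scoc and near Man2b1, and both of these near Zswim4, which raises those shares by genes chosen for their p.

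The neighbours with the smallest p-values had small differences. Mri1, 0.0129 Mb from the transcription start of Zswim4, was at 12.5, 10.9, 12.2 and 12.3 CPM on anle138b and at 16.1, 17.99, 15.3 and 14.9 CPM on placebo (log2 fold change −0.43, edgeR adjusted p = 0.199). Gcdh was at 29.3, 29.6, 29.2 and 29.97 CPM against 37.7, 35.1, 34.6 and 34.4 CPM (−0.27, adjusted p = 0.212). Neither gene overlapped between groups. Cacna1a was at 121 to 130 CPM against 140 to 180 CPM (−0.33, adjusted p = 0.247), Trmt1, a tRNA methyltransferase, had a log2 fold change of −0.24, and the membrane-insertion ATPase Asna1 and the adaptor Gipc1 had 0.16 and 0.19, none of them past the threshold. Gpt2, Myo9b and Nr2f6 had −0.27, −0.29 and 0.33.

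**Figure D2:**
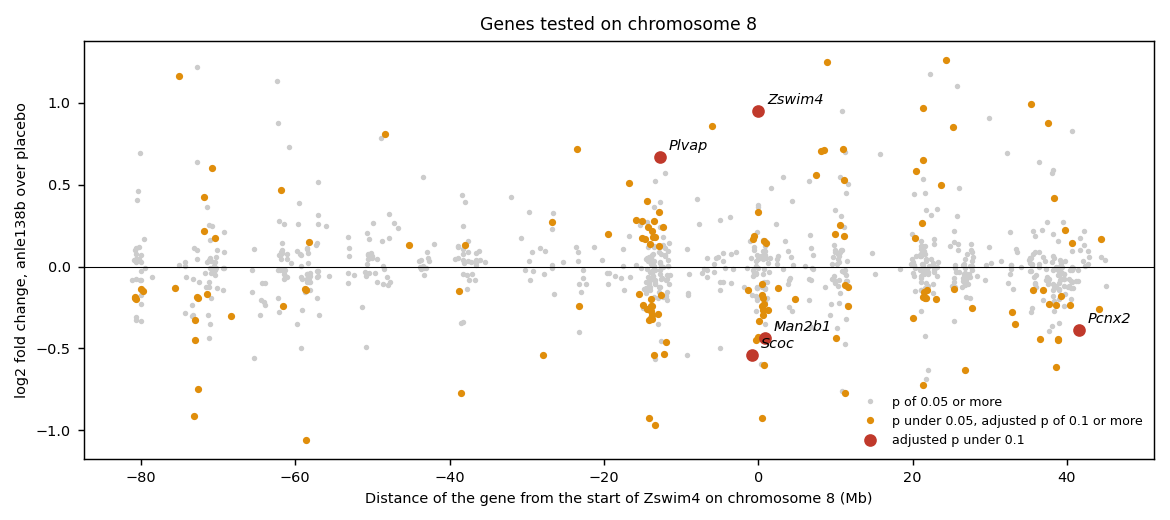
Log2 fold change of anle138b against placebo for each tested gene of chromosome 8, by distance in Mb from the start of Zswim4 (grey, orange and red by p). Zswim4, Scoc and Man2b1 stand close together near 0 Mb in both directions, with Plvap at −12.7 Mb and Pcnx2 at 41.5 Mb.

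The same levels of these genes occurred in mice outside this comparison, on either chow. In WT mice of 6 months, Zswim4 was at 45.9, 20.4, 43.8 and 23.3 CPM in anle138b mice 33, 39, 41 and 83, and at 25.6, 44.5, 23.6 and 20.5 CPM in placebo mice 30, 31, 37 and 77. Mice 33, 41 and 31 thus had levels of the treated APPPS1ΔE9 mice, 1 of them on placebo, and the other 5 had levels of the placebo APPPS1ΔE9 mice. In APPPS1ΔE9 mice of 10 months, Zswim4 was at 43.5 and 55.3 CPM in the anle138b mice titled B108 and B109 and at 52.4 CPM in the placebo mouse titled A100. The other 9 were between 19.5 and 31.5 CPM, and the 10 WT mice of that age were between 17.8 and 32.4 CPM.

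Scoc was low in the mice in which Zswim4 was high. It was at 31.1, 32.1 and 34.8 CPM in WT mice 33, 41 and 31, and at 45.5 to 53.6 CPM in the other 5. At 10 months it was at 31.3, 26.7 and 26.8 CPM in mice B108, B109 and A100, and at 38.1 to 58.4 CPM in all others. Gcdh had its 3 lowest values among the 8 WT mice of 6 months in the same mice (28.7, 30.7 and 30.01 CPM, the others 32.8 to 38.4 CPM).

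Tdpx-ps1 on chromosome 1 showed the same mice. It was at 1.93, 2.07 and 1.61 CPM in WT mice 33, 41 and 31, and at 0.0714 to 0.160 CPM in the other WT mice of 6 months except mouse 39 with 0.626 CPM. It was at 1.74, 1.45 and 1.54 CPM in mice B108, B109 and A100 and at no more than 0.214 CPM in any other mouse of 10 months. So a signal at this pseudogene accompanied a high Zswim4 level in each of these 6 mice, 2 of them on placebo.

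Plvap went with Zswim4 in most of these mice. At 10 months it was at 11.7, 15.8 and 11.1 CPM in mice B108, B109 and A100 and at 4.83 to 8.71 CPM in the others. In WT mice 33, 41 and 31 it was at 9.75, 9.89 and 8.502 CPM, but WT mouse 30 had 11.1 CPM of Plvap with 25.6 CPM of Zswim4, so the 2 genes parted there. Man2b1 did not follow Zswim4, being at 52.93, 52.95 and 54.23 CPM in WT mice 33, 41 and 31 and at 47.7 to 58.3 CPM in the other 5. In a fit over all 16 mice of 6 months, in which the WT mice add to the spread, Zswim4 kept a log2 fold change of 0.96 with an adjusted p of 0.231, and Scoc and Tdpx-ps1 had adjusted p-values of 0.213 and 0.204, while Man2b1, Pisd-ps1 and Pisd-ps2 passed the threshold. Whether mice carried different alleles on chromosome 8 was not tested, since the counts hold no sequence of the reads.

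**Figure D3:**
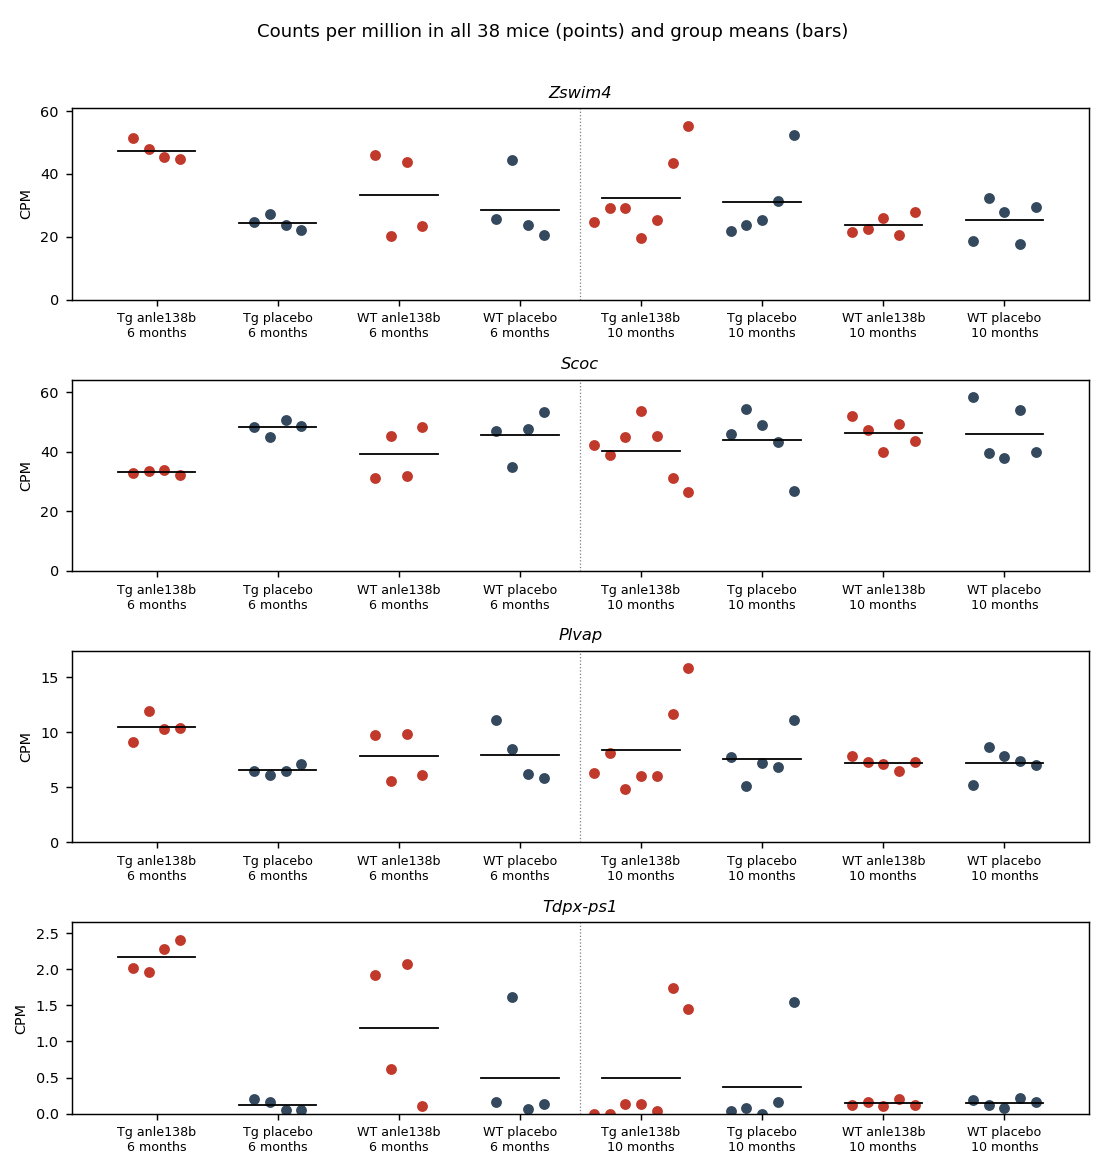
CPM of Zswim4, Scoc, Plvap and Tdpx-ps1 in all 38 mice by group, 1 point per mouse. WT mice 33, 41 and 31 and 10-month-old APPPS1ΔE9 mice B108, B109 and A100 lie at the level of the anle138b-treated 6-month-old APPPS1ΔE9 mice for Zswim4 and Scoc, on both chows.

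In the WT mice of 6 months, 0 of 16766 genes passed the threshold in edgeR (0.0%), 310 had an unadjusted p under 0.05 (1.85%) and DESeq2 called 2. In APPPS1ΔE9 mice of 10 months, fed from 6 months, 0 of 17110 passed in edgeR (0.0%), 254 had an unadjusted p under 0.05 (1.48%) and DESeq2 called 0. In those fits the log2 fold changes of Zswim4 were 0.23 and 0.07, those of Scoc −0.22 and −0.12, those of Man2b1 −0.07 and 0.03, and those of Pisd-ps2 −0.12 and −0.03. The difference of the anle138b effect between genotypes passed for 0 of 17404 genes (1390 unadjusted, 7.99%, DESeq2 28, and 22 in edgeR without placebo mouse 17) and that between ages for 0 of 17821 (1301 unadjusted, 7.3%, DESeq2 11). With all mice in these fits, no gene passed in edgeR. With 4 mice in each group of 6 months and both sexes in the WT groups, this does not show that responses were alike.

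Among the 9, Man2b1 had the smallest p for the difference between genotypes, at −0.36 on the log2 scale (edgeR adjusted p = 0.516). Pisd-ps2 and Pisd-ps1 had −0.48 and −0.44, both also with an adjusted p of 0.516, as did Pcnx2 with −0.46. For these 4 genes WT placebo mice lay below the APPPS1ΔE9 placebo mice or overlapped them (Man2b1 51.7 to 58.3 CPM against 66.6 to 71.3 CPM). Across 16633 genes the log2 fold changes of the 2 genotypes had a Pearson r of 0.011, a description over genes that are not independent of each other.

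Beyond the threshold, the 8 higher and the 8 lower genes with the next smallest p-values were taken from the genes whose groups did not overlap, which were 1045 of all tested (6.14%), 466 higher (2.74%) and 579 lower (3.4%). The higher ones were Coq9, Rnd2, Tiam2, Gm13341, Glp1r, Gja1, Cnbd2 and Trappc2l. Gja1, connexin 43 of astrocytes, was at 257, 270, 268 and 273 CPM on anle138b and at 244, 221, 224 and 216 CPM on placebo (log2 fold change 0.24, edgeR adjusted p = 0.247). Glp1r, the receptor of glucagon-like peptide 1, had the widest difference of the 8, at 2.999, 4.70, 4.04 and 3.34 CPM against 2.63, 1.66, 1.25 and 1.77 CPM (1.03, adjusted p = 0.247). Coq9 was at 77.9 to 80.7 CPM against 65.0 to 69.2 CPM (0.25, adjusted p = 0.118). Rnd2, a small GTPase of neurons, had 0.23 and Tiam2, an activator of Rac, had 0.31.

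The lower ones were Bmp1, Cd52, Laptm5, Csf3r, Neo1, Mri1, Traip and Phka2. Cd52, Laptm5 and Csf3r are genes of microglia and other myeloid cells. Laptm5, a lysosomal membrane protein, was at 33.1, 33.98, 33.2 and 38.9 CPM on anle138b and at 42.1, 49.1, 45.0 and 55.1 CPM on placebo (log2 fold change −0.46, edgeR adjusted p = 0.164). Csf3r, the receptor of granulocyte colony-stimulating factor, was at 6.57, 5.01, 4.99 and 6.36 CPM against 8.37, 10.9, 7.89 and 10.6 CPM (−0.72, adjusted p = 0.191). In WT mice Laptm5 lay between 31.1 and 38.95 CPM and Csf3r between 4.71 and 6.67 CPM, about where the treated APPPS1ΔE9 mice lay. Bmp1, a protease that trims procollagens, had −0.46 (adjusted p = 0.118) and the receptor Neo1 −0.32.

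Most genes of plaque-associated microglia lay lower in the anle138b mice. No gene of the list passed the threshold in edgeR, while DESeq2 called 4 lower and 1 higher at the same adjusted p. Of 24 tested, 10 were lower and 1 higher at an unadjusted p under 0.05, against 7.63% lower and 5.5% higher over all genes, and the median log2 fold change was −0.19 against −0.0022 over all genes. The 10 were Cd52, Ccl6, Clec7a, Itgax, Cd68, Cst7, Ccl3, Trem2, Tyrobp and Ch25h. In whole hippocampus, fewer microglia and less RNA per microglial cell cannot be told apart.

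Cst7, an inhibitor of cathepsins that marks this state, was at 1.97, 1.49, 0.844 and 3.63 CPM on anle138b and at 2.87, 6.97, 5.39 and 7.92 CPM on placebo, and at no more than 0.289 CPM in WT mice. Mouse 84 on anle138b and mouse 17 on placebo overlapped (log2 fold change −1.54, edgeR adjusted p = 0.324). Each belongs to the number range in which the other group has 3 mice. Within a range, mouse 84 lay below all 3 placebo mice of its range, and mouse 17 above all 3 treated mice of its own. With the number range as a covariate the log2 fold change was −0.95.

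Clec7a, the β-glucan receptor dectin-1, was at 1.59, 1.25, 1.25 and 2.26 CPM on anle138b and at 2.34, 3.17, 3.35 and 5.84 CPM on placebo (log2 fold change −1.21, −0.83 with the covariate, adjusted p = 0.280 without it). WT mice were between 0.409 and 1.08 CPM, below every treated mouse. Cd52, a small glycoprotein on the surface of immune cells, was at 1.101, 0.902, 1.14 and 1.04 CPM against 2.01, 2.02, 1.99 and 2.94 CPM (−1.10, adjusted p = 0.118), and at 0.785 to 1.68 CPM in WT mice. Ccl6, a chemokine, was at 2.31 to 2.80 CPM against 3.33 to 4.35 CPM (−0.66, adjusted p = 0.247). Cd52 and Ccl6 did not overlap between the groups.

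Trem2, the lipid receptor that microglia need to enter the plaque-associated state, was at 19.6, 17.4, 21 and 25.2 CPM on anle138b and at 21.4, 28.2, 28.8 and 37.8 CPM on placebo. Its signalling partner Tyrobp was at 18.9, 15.4, 20.2 and 24.9 CPM against 22.5, 24.4, 26.1 and 37.4 CPM. Both overlapped between groups, and mouse 75 on placebo was the highest for each. The log2 fold changes were −0.48 (edgeR adjusted p = 0.345) and −0.48 (adjusted p = 0.371), and −0.24 and −0.27 with the covariate. Itgax, the integrin CD11c, was at 0.529 to 1.51 CPM against 1.07 to 2.76 CPM (−1.21, adjusted p = 0.310).

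Apoe was the 1 member of that list higher at an unadjusted p under 0.05, at 1565, 1470, 1481 and 1281 CPM against 1257, 1190, 1177 and 1307 CPM (log2 fold change 0.23, edgeR adjusted p = 0.310). Most Apoe RNA of the brain is made by astrocytes, and a microglial share cannot be told apart in whole tissue. Of the whole list, 17 members were lower and 7 higher. Besides Apoe, the higher ones were Lgals3 (log2 fold change 0.54), Spp1 (0.37), Cd63 (0.31), Lpl (0.25), Cd9 (0.09) and B2m (0.03). None of these had an unadjusted p under 0.05, so the list did not move as a whole. With the number range as a covariate 6 were lower and 1 higher at an unadjusted p under 0.05, with a median of −0.21. Without placebo mouse 75 the median was −0.10.

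Complement and Fc receptor genes also lay lower. Of 12 tested, 5 were lower and 0 higher at an unadjusted p under 0.05, against 7.63% and 5.5% over all genes. A negative log2 fold change was found for 11, and the median was −0.32. C4b, complement component 4 made by astrocytes and other glia near plaques, was at 36.6, 41.9, 38.1 and 48.6 CPM on anle138b and at 52.1, 90.7, 73.0 and 107 CPM on placebo. The treated mice were all lower, and 3 of them were within the 32.1 to 46.3 CPM of WT mice (log2 fold change −0.97, edgeR adjusted p = 0.292). Itgb2, the β2 integrin chain of complement receptors, was at 6.76, 6.57, 6.57 and 8.77 CPM against 9.77, 11.1, 9.99 and 12.1 CPM (−0.58, adjusted p = 0.205). C3 overlapped between the groups, with 0.06. With the covariate 2 were lower and the median was −0.16, and without placebo mouse 75 it was −0.17. None passed the threshold in edgeR and DESeq2 called 2, both lower.

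Homeostatic microglial genes gave 5 lower and 0 higher of 15 at an unadjusted p under 0.05, with a median of −0.15. Over all genes, 7.63% were lower and 5.5% higher at that p. Ptprc, the leukocyte phosphatase CD45, was at 5.85, 4.36, 5.73 and 4.74 CPM on anle138b and at 7.76, 6.30, 6.81 and 9.46 CPM on placebo (log2 fold change −0.56, edgeR adjusted p = 0.280). Csf1r, the receptor microglia need to survive, was at 117, 103, 98.6 and 123 CPM against 117, 146, 125 and 148 CPM (−0.28, adjusted p = 0.323). P2ry12, the nucleotide receptor of resting microglia, was at 39.02 to 56.3 CPM against 39.4 to 46.2 CPM and overlapped between groups (0.13, adjusted p = 0.610). With the covariate P2ry12 had a log2 fold change of 0.25 (unadjusted p = 0.012, edgeR model fit), against the direction of most of its list. It was then the 1 member higher and Ptprc the 1 lower, and the median was −0.07. The median was −0.08 without placebo mouse 75 and −0.23 without placebo mouse 17. DESeq2 called 1 member, lower.

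In WT mice of 6 months the medians were 0.03 for the plaque-associated list, −0.11 for complement and Fc receptors and −0.03 for homeostatic microglia. In APPPS1ΔE9 mice of 10 months they were 0.07, 0.04 and 0.08. Among the lists of other glia, reactive astrocyte genes gave 3 lower and 1 higher of 12 at an unadjusted p under 0.05, with a median of −0.08. Homeostatic astrocyte genes gave 3 higher and 0 lower of 14 at that p, with a median of 0.10. Over all genes, 7.63% were lower and 5.5% higher at that p. By direction alone, 9 reactive genes were lower and 3 higher, and all 14 homeostatic genes were higher, 13 of them with the covariate. The reactive list had 1 lower and 0 higher at that p with the covariate. Its median in the fit without the covariate was 0.02 without placebo mouse 75 and −0.19 without anle138b mouse 84. Blood leukocyte genes were at most at 2.50 CPM in sum in these 8 mice. Their part in the microglial differences was not tested.

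**Figure D4:**
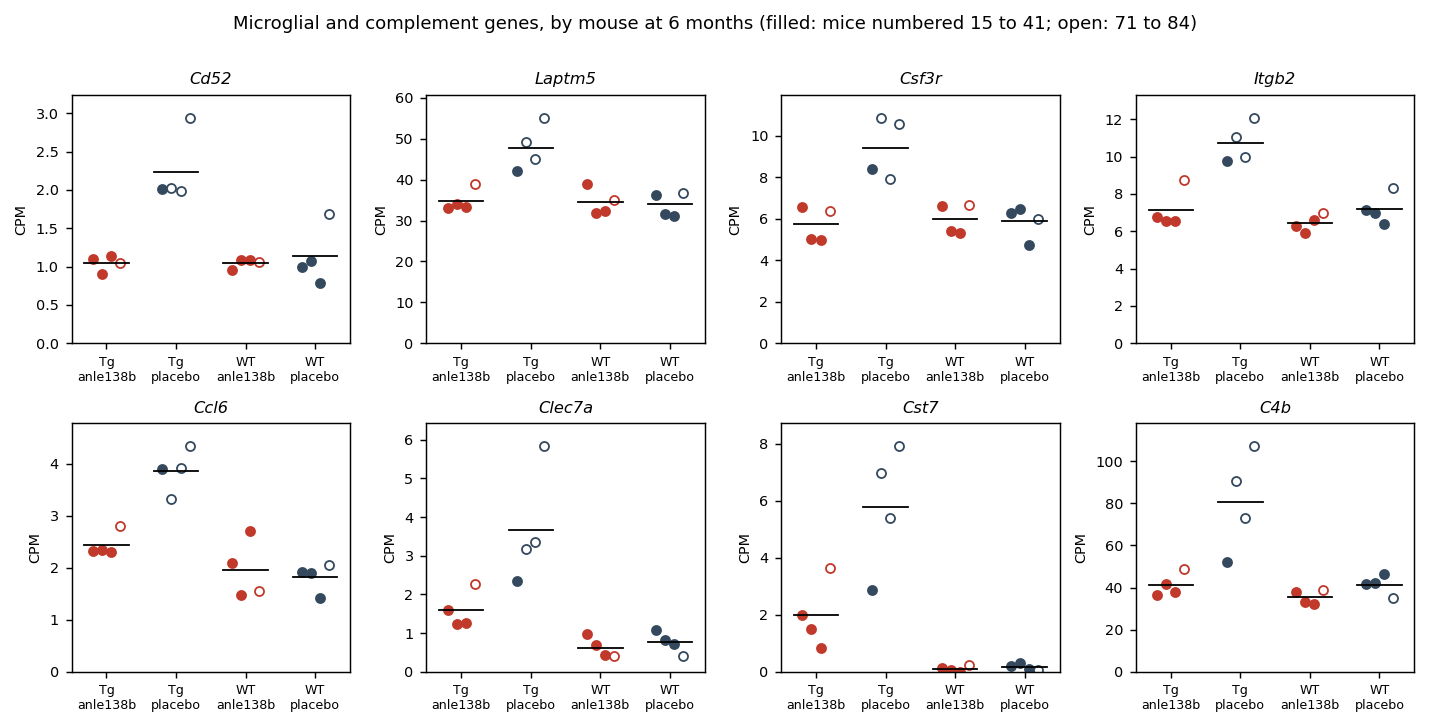
CPM of genes of microglia and complement in the 4 groups of 6-month-old mice, 1 point per mouse (filled for mouse numbers 15 to 41, open for 71 to 84) and a bar at each group mean. Placebo APPPS1ΔE9 mice lie highest, most of all mouse 75, and mouse 84 is the highest of the anle138b mice for several genes.

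Genes of the respiratory chain lay higher in the anle138b mice, by small amounts in many members. Of 37 tested genes of complex I, the NADH dehydrogenase, 19 were higher and 0 lower at an unadjusted p under 0.05. Over all genes, 5.5% were higher and 7.63% lower at that p. In complex I, 35 genes had a positive log2 fold change and the median was 0.15. Of 39 genes of complexes II to V, 21 were higher and 0 lower, with a median of 0.15. No member passed the threshold in edgeR, and DESeq2 called 3 and 2 members, all higher. With the number range as a covariate the counts were 10 and 12 with medians of 0.14 and 0.13.

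Ndufa2, an accessory subunit of complex I, was at 75.2, 76.4, 82.1 and 72.8 CPM on anle138b and at 63.4, 58.3, 65.9 and 70.1 CPM on placebo (log2 fold change 0.25, edgeR adjusted p = 0.280). Cox8a, a subunit of cytochrome c oxidase, was at 236, 245, 254 and 244 CPM against 212, 198, 220 and 225 CPM (0.19, adjusted p = 0.280). Atp5e, the ε subunit of ATP synthase, was at 96.3, 92.9, 97.7 and 82.9 CPM against 78.5, 71.6, 79.7 and 80.0 CPM (0.25, adjusted p = 0.280). These 3 were named for the smallest p-values in their lists. None of them overlapped between groups, as was so for 6.14% of all genes tested, and placebo mouse 71 was the lowest in each. WT mice were at 69.0 to 78.8 CPM for Ndufa2, a range that overlaps both the treated and the placebo mice. For Cox8a they were at 228 to 249 CPM, above every placebo mouse.

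Mitochondrially encoded genes were measurable for 7 of 13, the others at or near 0. All 7 were higher, 3 at an unadjusted p under 0.05, with a median of 0.22. They summed to 34880, 41240, 45850 and 45040 CPM on anle138b and to 34800, 31590, 37940 and 38520 CPM on placebo, and mouse 15 lay within the placebo range. Of 79 genes of cytosolic ribosomal proteins, 21 were higher and 2 lower at that p (5.5% and 7.63% over all genes), with a median of 0.11. Rpl7 was at 62.5, 64.7, 74 and 67.2 CPM against 58.96, 51.3, 57.6 and 60.8 CPM (log2 fold change 0.23, edgeR adjusted p = 0.303).

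These genes have short transcripts. With offsets for GC content and transcript length the median of complex I was 0.08, that of complexes II to V 0.06 and that of ribosomal proteins 0.03, against −0.02 over all genes. In WT mice of 6 months the medians were −0.05, −0.03 and −0.01, and in APPPS1ΔE9 mice of 10 months complex I had −0.06.

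All 20 tested genes of cholesterol synthesis had a positive log2 fold change, against 8406 of 17009 over all genes, with a median of 0.12. At an unadjusted p under 0.05, 7 of them were higher, against 5.5% over all genes. Insig1, which holds back the SREBP pathway and is itself its target, was at 51.1, 49.1, 50.4 and 48.7 CPM on anle138b and at 43.6, 44.3, 41.8 and 41.9 CPM on placebo (log2 fold change 0.21, edgeR adjusted p = 0.247). Msmo1, a sterol methyl oxidase, was at 96.8, 100, 101 and 92.2 CPM against 89.5, 82.0, 87.6 and 80.9 CPM (0.20, adjusted p = 0.280), and Cyp51, the lanosterol demethylase, had 0.19. The other 4 were Sc5d, Hmgcs1, Mvk and Sqle. DESeq2 called 5 members, all higher. With the covariate 5 were higher and the median was 0.07. In WT mice of 6 months 15 of the 20 were higher, with a median of 0.05. In APPPS1ΔE9 mice of 10 months all 20 were lower on anle138b, with a median of −0.07.

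Long noncoding RNAs that stay in the nucleus lay lower. Of 10 tested, 7 were lower and 1 higher at an unadjusted p under 0.05, against 7.63% and 5.5% over all genes. The median was −0.41, the lowest of the 13 lists with at least 5 members at that p. Malat1, a component of nuclear speckles, was at 713, 465, 526 and 612 CPM on anle138b and at 1150, 1140, 834 and 737 CPM on placebo (log2 fold change −0.74, edgeR adjusted p = 0.303). The groups did not overlap, though treated mouse 15 and placebo mouse 75 were close. WT mice were between 528 and 1005 CPM, over most of both ranges. Snhg11, a host gene of small nucleolar RNAs that neurons express, was at 1407, 1185, 1262 and 1315 CPM against 1714, 2060, 1637 and 1370 CPM (−0.39, adjusted p = 0.280). The others were Mirg, Snhg14, Meg3, Kcnq1ot1 and Rian. With the covariate 5 were lower and 1 higher and the median was −0.39, and without placebo mouse 71 the median was −0.26. DESeq2 called 2 lower and 1 higher.

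The 1 member that was higher was Xist, at 5.39, 2.80, 0.954 and 2.26 CPM on anle138b and at 0.985, 0.475, 0.284 and 0.317 CPM on placebo. These are traces, against the 1170 CPM and more of the WT mice named above (log2 fold change 2.41, edgeR adjusted p = 0.292). Long mRNAs of chromatin and splicing proteins gave 5 lower and 1 higher of 20 at an unadjusted p under 0.05, against 7.63% and 5.5% over all genes. A negative log2 fold change was found for 19, with a median of −0.11 (−0.04 without placebo mouse 71). With the covariate 3 were lower and 0 higher at that p, with a median of −0.11. Srrm2, a protein of nuclear speckles, was at 603, 523, 556 and 563 CPM against 783, 931, 666 and 600 CPM (log2 fold change −0.41, edgeR adjusted p = 0.305). Nuclear RNAs and respiratory chain mRNAs thus differed in opposite directions between the same mice. Placebo mouse 71 was at one end of both, with the highest Srrm2 and the lowest Cox8a.

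Of 25 genes of presynaptic vesicle release, 24 had a negative log2 fold change, and the median was −0.10. At an unadjusted p under 0.05, 5 were lower and 0 higher, against 7.63% and 5.5% over all genes. With the covariate 1 was lower and the median was −0.03, and without placebo mouse 71 the median was −0.06. Postsynaptic scaffolds and plasticity kinases gave 4 lower and 0 higher of 20, with 17 negative log2 fold changes and a median of −0.10, and 4 lower and 2 higher with the covariate, with a median of −0.03. Unc13b, which primes vesicles, was at 73.3, 63.3, 64.8 and 67.5 CPM on anle138b and at 82.3, 90.8, 79.6 and 75.7 CPM on placebo without overlap (log2 fold change −0.29, edgeR adjusted p = 0.247). The scaffold Bsn was at 452, 402, 395 and 422 CPM against 415, 564, 500 and 496 CPM, and mouse 17 lay among the treated mice (−0.24, adjusted p = 0.324). Of 22 glutamate receptor genes, 3 were higher and 3 lower, with a median of −0.06. Grm3, the metabotropic receptor 3, was at 51.2, 49.7, 50.8 and 50.3 CPM against 44.5, 43.9, 45.5 and 42.0 CPM (0.20, adjusted p = 0.280), and the kainate receptor subunit Grik4 had −0.30. Immediate early genes, the record of recent firing, gave 0 higher and 0 lower of 18 at an unadjusted p under 0.05, though 15 had a negative log2 fold change, with a median of −0.14 that was 0.27 without placebo mouse 71.

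Of 16 glycolysis genes, 4 were lower and 1 higher at an unadjusted p under 0.05 (7.63% and 5.5% over all genes), with a median of −0.04. Eno1, an enolase, was at 140, 178, 164 and 130 CPM on anle138b and at 191, 199, 190 and 182 CPM on placebo (log2 fold change −0.32, edgeR adjusted p = 0.292). The treated WT mice also lay lower for Eno1, at 118, 144, 116 and 173 CPM against 192, 174, 169 and 184 CPM in WT placebo mice, with a log2 fold change of −0.38 that did not pass the threshold either. Treated WT mouse 83 lay above placebo mouse 37, so the WT groups overlapped.

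Among genes of tissue at the border of the hippocampus, those of the choroid plexus followed the mouse number. All 13 choroid plexus genes had a positive log2 fold change, with a median of 1.23, and with the number range as a covariate the median was −0.11. None had an unadjusted p under 0.05. Their summed levels were 7106, 6289, 7787 and 187 CPM on anle138b and 6989, 76.7, 753 and 207 CPM on placebo. Meningeal fibroblast genes had a median of 0.28, and −0.37 with the covariate, where 9 of 10 were lower. Ependyma genes were all 8 higher with a median of 0.61. With the covariate 7 of them stayed higher, with a median of 0.27. In the 16 mice of 6 months, Ttr was between 3731 and 7509 CPM in the 10 numbered 15 to 41 and between 32.3 and 655 CPM in the 6 numbered 71 to 84. The number range itself moved 1047 of 17009 genes past the threshold in the 8 mice (6.16%), 184 higher (1.08%) and 863 lower (5.07%) in mice 71 to 84, far more than chow did.

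Collagens differed between the fits without and with the number range. Without it 6 of 27 were lower at an unadjusted p under 0.05 (7.63% over all genes) and the median was 0.03. With it 12 were lower (5.17% over all genes) and 0 higher. The median was then −0.36, beside −0.37 for the meningeal list. In WT mice of 6 months 21 of 27 were lower, with a median of −0.13. In APPPS1ΔE9 mice of 10 months 19 of 27 were lower, with a median of −0.16. Col6a1, a chain of the microfibrillar collagen VI, was at 55.9, 37.8, 43.1 and 35.04 CPM on anle138b and at 74.2, 98.9, 59.8 and 136 CPM on placebo without overlap (log2 fold change −1.10, edgeR adjusted p = 0.310, and −1.09 with the covariate). Col4a2 and Col4a1, the chains of collagen IV in the basement membrane of vessels, had −0.45 and −0.33, and −0.55 and −0.39 with the covariate. No collagen passed the threshold in either edgeR fit, and DESeq2 called 2, both lower. Bmp1 above, which cleaves procollagens, lay in the same direction.

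**Figure D5:**
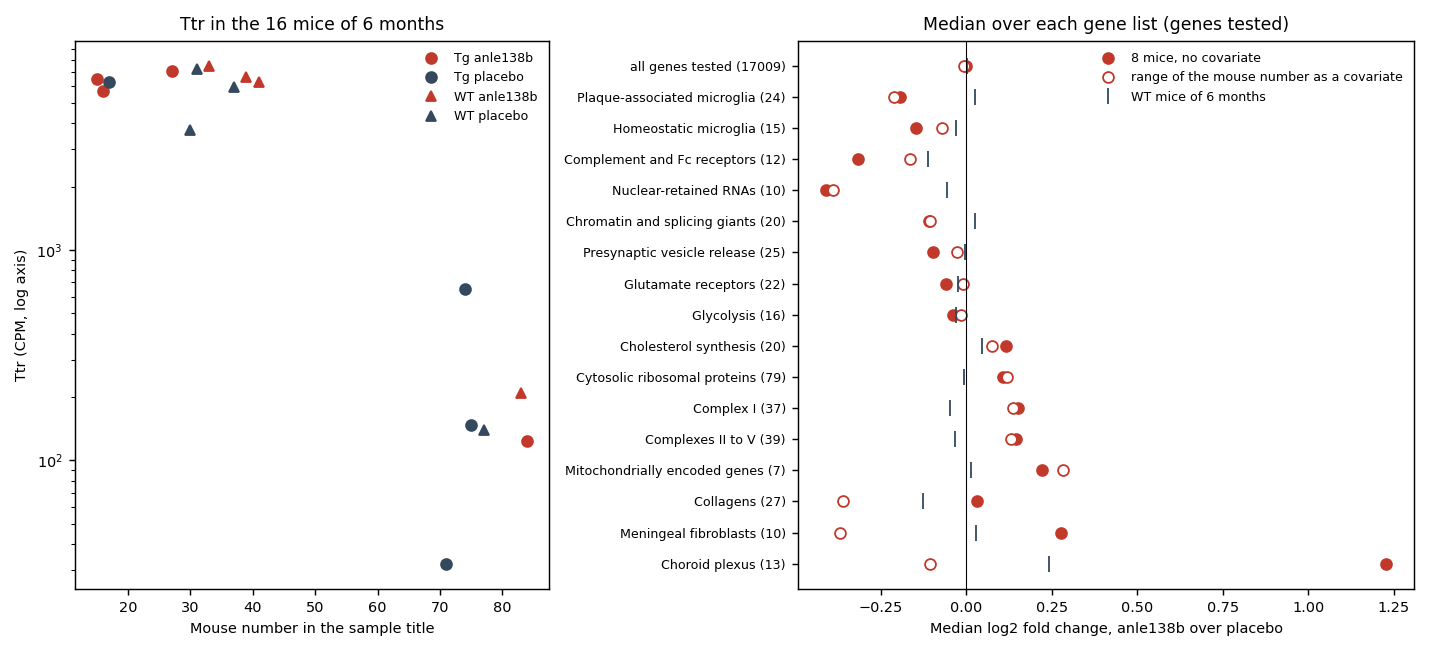
Left, Ttr CPM (log axis) against mouse number in the 16 mice of 6 months. Right, median log2 fold change of the gene lists for anle138b against placebo in 6-month-old APPPS1ΔE9 mice without and with the number range as a covariate and in WT mice of 6 months. Choroid plexus, meningeal and collagen medians shift below 0 with the covariate, while microglial lists stay below 0 and respiratory chain lists above 0.

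In all, 43 lists were described and none had a member past the threshold in edgeR. DESeq2 called 1 to 5 members in 20 of them, against 206 of 15430 over all genes (1.34%). Besides the 13 lists with at least 5 members at an unadjusted p under 0.05, the other 30 had at most 4, 10 of them none. Over all genes, 5.5% were higher and 7.63% lower at that p. Interferon-stimulated genes gave 1 lower of 12 with a median of −0.10, myelin genes 0 of 14 (0.07), genes of the Ah receptor, NRF2 and drug metabolism 2 higher of 20 (0.03), proteasome subunits 3 higher of 30 (0.07) and heat shock genes 1 higher and 3 lower of 23 (0.03). Markers of thalamus, neocortex and striatum, regions that a dissection could add, had medians of 0.09, 0.17 and 0.41 with 0, 1 and 2 members higher at an unadjusted p under 0.05, and medians of 0.05, 0.07 and 0.12 with the covariate.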

How the data were processed

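Hippocampal RNA of 38 mice was sequenced (TruSeq mRNA libraries). The authors mapped the reads with STAR to mm10, per the labels, and counted them with HTSeq (intersection-nonempty). The deposited files hold raw counts, neither scaled nor filtered, for 48709 genes in each mouse. Annotation release and strandedness are not given in the sources used here. Symbols, positions and sequences came from GENCODE M21 on GRCm38 (48349 genes matched), and reads shared by copies, overlapping or antisense genes cannot be told apart.

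Genes passing filterByExpr (minimum count 10, minimum total 15) were scaled by TMM, and the 8 mice were compared by the quasi-likelihood test of edgeR, with Benjamini-Hochberg adjusted p under 0.1 as the threshold. The SE of a fold change is its size over the root of the test's F. Versions: edgeR 4.0.16, limma 3.58.1 and DESeq2 1.42.0 under R 4.3.3. The code was tested on simulated data. WT mice of 6 months, APPPS1ΔE9 mice of 10 months, and the differences of the effect between genotypes and ages were fitted the same way. Total counts were 17939563 to 31895808 in the 8 mice. No 2 libraries of a group agreed within sampling noise. Each mouse gave 1 library, and p-values measure the spread between mice.

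Alternatives were DESeq2, limma voom, other size factors, no filter, other sets of samples, GC and length offsets, the running number as a block, each mouse left out and, added after the data were seen, the mouse number range as a covariate or a subset. A running number is the order of a library within its group and marks no shared animal.

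The members and gene lists were chosen with earlier results of these data known. Genes named are the transgene-related genes, those past the threshold, the next 8 in each direction without overlap and with a mean of at least 1 CPM, leading members of the 13 lists with 5 or more members at an unadjusted p under 0.05, and neighbours within 1 Mb with p under 0.01. Ttr, Trem2, Itgax, Tyrobp, Cst7, Cpne7, Homer3, the other list members, the Y-linked genes and the parents and copies of pseudogenes were added after their values were seen. No sample was left out. Values of a few named genes are not reported here.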

Additional observations from a re-analysis of the deposited data

Results flagged for a closer look

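In 23 of 280 groups of 4 mice tested (the values of the named genes and the mean log2 CPM of the lists), 1 mouse stood apart from the other 3 by a gap past Dixon's critical value for a group of 4. Chance gives about 1 in 20.

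Among single genes on anle138b, mouse 84 was high for Laptm5 (38.9 CPM), Ccl6 (2.80 CPM) and Itgb2 (8.77 CPM), 3 genes of microglia. Mouse 16 was low for Trappc2l (37.2 CPM), Mri1 (10.9 CPM) and Rps15 (149.6 CPM), and mouse 27 for Lamr1-ps1 (10.9 CPM) and Prdx2 (156 CPM). On placebo, mouse 75 was high for Prnp (2928 CPM) and Cd52 (2.94 CPM), mouse 17 was high for Ttr (6305 CPM), and mouse 71 was low for Lamr1-ps1 (11.5 CPM) and Trappc2l (30.9 CPM) and high for Pisd (57.4 CPM).

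Among mean log2 CPM values of lists, placebo mouse 75 was high for plaque-associated microglia (4.25), placebo mouse 71 low for complexes II to V (6.43) and placebo mouse 74 apart for brain endothelium (4.39). On anle138b, mouse 84 was low for collagens (3.01), meningeal fibroblasts (3.40) and choroid plexus (1.90), mouse 16 was apart for glucocorticoid-responsive genes (4.74), mouse 15 for oligodendrocytes and myelin (6.80) and mouse 27 for blood leukocytes (−0.30). The choroid plexus flags of mice 84 and 17 are the mice whose number range differs from that of the rest of their group. What set the other mice apart was not tested.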

How the results depend on the processing

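The 9 genes past the threshold were 206 with DESeq2, 120 without the filter on low counts, 3 with all 4 groups of 6 months and 40 with all 8 groups in the fit, 17 in mice 15 to 27 only and 19 in mice 71 to 84 only (1 mouse in one arm, assumed to vary like the others), 6 to 317 with 1 mouse left out, and between 6 and 10 under the other alternatives. The running number within a group did not pair the mice (correlations of deviations 0.24, −0.32, −0.14 and 0.11), and as a replicate block it gave 10 genes. The 0 genes for the difference between genotypes were 28 with DESeq2 and 0 to 22 with 1 mouse left out. The 0 genes for the difference between ages were 11 with DESeq2, 1 with the block and 0 to 1 with 1 mouse left out. The 0 genes in WT mice were 2 with DESeq2 and 0 to 2 with 1 mouse left out. For APPPS1ΔE9 mice of 10 months all alternatives run gave 0. Over the 97 named genes, 1834 values kept their direction and side of the threshold, 126 passed it, 56 (9 genes) no longer did and 21 (8 genes) changed sign.

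The genes that changed sign were among those far from the threshold. In mice 71 to 84 only, log2 fold changes were 0.072 for Prnp, −0.033 for Zfhx3 and −1.17 for Ttr (−0.56 with the number range as a covariate). In mice 15 to 27 only they were −0.21 for C3, 0.017 for Bsn, 0.076 for Ddx3y, 0.16 for Eif2s3y and −0.15 for Lamr1-ps1. Lamr1-ps1 had −0.0022 with the block, −0.11 with voom, −0.082 with GC and length offsets and −0.090 with both offsets and block, and −0.12 to 0.14 with 1 mouse left out. C3 had −0.069 to 0.23 with 1 mouse left out. The cause was not tested. Lane cannot be told apart from chow, and depth limits the low genes most, such as Tdpx-ps1 with 11 reads over the placebo group.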

Other observations

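The Y-linked genes Kdm5d, Uty, Ddx3y and Eif2s3y lay at a lower and a higher level in these mice. Kdm5d, a histone demethylase, was at 35.6, 31.4, 36.1 and 31.8 CPM in anle138b mice 15, 16, 27 and 84 and at 35.04, 31.4, 70.99 and 65.3 CPM in placebo mice 17, 71, 74 and 75. The sum of the 4 genes was 173 to 194 CPM in the anle138b mice, and 175, 172, 365 and 336 CPM in the placebo mice. The groups overlapped, and Kdm5d did not pass the threshold (log2 fold change −0.58, edgeR adjusted p = 0.447). Placebo mice 17 and 71 had the lower Y level with the lower Zswim4 level, so the 2 levels did not go together in every mouse.

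In other groups, WT mouse 41 (174 CPM) and 10-month-old APPPS1ΔE9 mice B108, B109 and A100 (202, 176 and 185 CPM) had the lower sum, and so had WT mouse 53 of 10 months (179 CPM). The first 4 of these had a high Zswim4 level, and mouse 53 was at 32.4 CPM. Whether the mice differ in their Y chromosome was not tested.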
